A study of Mus musculus with 10 samples.

Results

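The genes that set heart muscle cells of the atria apart from those of the ventricles were examined in sorted mouse cardiomyocytes. The members were 10 rows of the authors' deposited table, of 23337 in all, chosen by symbol as known chamber genes. Of these, 7 are atrial genes (Myl4, Myl7, Sln, Mybphl, Bmp10, Dkk3 and Nr2f2) and 3 are ventricular genes (Myl2, Irx4 and Hey2). All 10 were found, 9 had an adjusted p-value, and Mybphl had a fold change with no p-value.

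The mice were wild type in both groups. On postnatal day 1 they received 5e+08 viral genomes per gram of an AAV9 vector with the cardiac troponin T promoter, which carried dnMKL1 together with GFP or GFP alone, and cells were taken on postnatal day 14. The labels name the vectors AAV9-cTNT-dnMKL1-GFP and AAV9-cTNT-GFP. There were 5 biological replicates with dnMKL1, a dominant-negative form of the serum response factor (SRF) coactivator MKL1, and 5 with GFP. Cells were released by collagenase perfusion and sorted by fluorescence, and the troponin T promoter is active in atrial and ventricular cardiomyocytes alike. The labels do not say whether the atria were removed.

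Atrial and ventricular cardiomyocytes build the same contractile machine from different parts. Each chamber has its own essential light chain of myosin (Myl4 in atria, Myl3 in ventricles), its own regulatory light chain (Myl7 and Myl2) and its own main small inhibitor of the calcium pump SERCA (Sln and Pln). The choice between them is kept by transcription factors, with Nr2f2 (COUP-TFII) holding the atrial programme and Irx4 and Hey2 repressing atrial genes in the ventricle.

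The vector's gene was read first. In the authors' deposited table Mkl1 had a log2 fold change of 9.80 (SE 0.15), and positive values are therefore taken as higher in dnMKL1 libraries. Srf was at -0.80 (SE 0.10) on the log2 scale in the authors' deposited table. Library totals, estimated from size factors recovered from the table, ran from 8803005 to 17123500 counts with GFP and from 8835151 to 17228537 with dnMKL1. Values per library were not analysed here. A gene's level in a group is the group mean in normalized counts, worked out from base mean and fold change as given in the authors' deposited table, and its error is the deposited standard error (SE) of the log2 fold change, with n = 5 in each group. A gene counts as changed where the authors' Wald test gave a Benjamini-Hochberg adjusted p-value under 0.05. Of 14056 genes tested, 34.1% passed: 16.6% of the genes tested were higher and 17.4% were lower in dnMKL1 libraries. In RNA of pooled cells, fewer cells of a type and less RNA per cell cannot be told apart.

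The sequences before start sites of Myl7, Myl3, Myl2 and Irx4 are shown because dnMKL1 acts on SRF, whose recognition element is the CArG box. The genes lie on chr11 (Myl4 at 104546017 to 104587215, plus strand, and Myl7 at 5896637 to 5898782, minus), chr9 (Sln at 53850251 to 53853849, plus), chr3 (Mybphl at 108364911 to 108380057, plus) and chr6 (Bmp10 at 87428994 to 87434512, plus). Dkk3 (112116019 to 112159482, minus) and Nr2f2 (70351946 to 70366746, minus) lie on chr7, Myl2 on chr5 (122092724 to 122113473, plus), Irx4 on chr13 (73259589 to 73269622, plus) and Hey2 on chr10 (30832359 to 30842783, minus), in GRCm38. RefSeq promoters (GRCm38.p6) were matched for 8 of the 10 members. Sln and Dkk3 were not among them. The 250 bases before the start are printed, with a CArG box in capitals. Myl7 lies on the minus strand at chr11:5898783-5899032, and Myl3 (chr9:110763428-110763677), the downstream of 2 listed starts of Myl2 (chr5:122092939-122093188) and Irx4 (chr13:73260247-73260496) lie on the plus strand. The windows of Myl2 and Irx4 lie inside the spans given above for these genes.
Myl7: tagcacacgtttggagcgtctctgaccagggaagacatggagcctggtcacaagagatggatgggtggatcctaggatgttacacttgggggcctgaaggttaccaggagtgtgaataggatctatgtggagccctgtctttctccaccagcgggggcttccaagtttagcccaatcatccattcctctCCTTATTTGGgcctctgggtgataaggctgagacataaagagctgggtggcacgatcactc
Myl3: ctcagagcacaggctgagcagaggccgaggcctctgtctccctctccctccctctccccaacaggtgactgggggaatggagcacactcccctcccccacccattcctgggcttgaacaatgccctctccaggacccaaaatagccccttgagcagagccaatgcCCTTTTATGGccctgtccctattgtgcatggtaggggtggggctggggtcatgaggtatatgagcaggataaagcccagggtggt
Myl2: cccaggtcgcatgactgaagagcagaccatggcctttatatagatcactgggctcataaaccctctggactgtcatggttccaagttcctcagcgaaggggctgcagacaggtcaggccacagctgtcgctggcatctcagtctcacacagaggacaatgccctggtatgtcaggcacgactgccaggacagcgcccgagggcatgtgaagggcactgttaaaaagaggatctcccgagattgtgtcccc
Irx4: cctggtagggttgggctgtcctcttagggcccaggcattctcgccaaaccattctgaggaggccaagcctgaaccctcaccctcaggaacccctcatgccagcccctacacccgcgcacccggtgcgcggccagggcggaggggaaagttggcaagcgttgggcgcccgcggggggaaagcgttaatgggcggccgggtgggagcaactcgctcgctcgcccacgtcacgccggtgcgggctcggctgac
A CArG box on either strand stood in 1 of 9 member promoters, that of Myl7, from base 61 to base 52 before the start (CCTTATTTGG). The promoter of Myl3 held another, CCTTTTATGG, from base 85 to base 76. Of 32851 RefSeq promoters, 1.47% had one in the same window. The Myl7 window also held GGAATG on its reverse strand (bases 70 to 65 before the start), a motif of TEAD factors found in 12.6% of promoters, and the Myl3 window held GGAATG at 2 places. The printed Myl2 window held AGGTCA (bases 141 to 136), the half-site of nuclear receptors such as Nr2f2, found in 14.0%, and ACANNTGT of iroquois factors (bases 131 to 124), found in 6.31%. Also searched on both strands, with no match in the 4 printed windows, were AGATAA of GATA factors (9.99% of promoters), AGGTGT of T-box factors (11.8%), AAGTGG of Nkx2-5 (14.1%) and CACGTG of Hey factors (6.02%). In the 4 printed windows no match overlapped another. A match is a run of letters and shows no binding.

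Of the 9 members with an adjusted p-value, 1 changed, the ventricular factor Irx4, and it was lower in dnMKL1 libraries. The count was 0 with both groups scaled to the same total count, and 3, all higher and Irx4 among them, with scaling to cardiomyocyte markers. None of the 6 atrial members tested passed, and 0 of them had an unadjusted p-value under 0.05 by the authors' Wald test. These counts stand against 34.1% of all genes. The atrial members had fold changes of both signs and very wide intervals, so that a change of several fold in either direction would not have been detectable for most of them.

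The ventricular regulatory light chain Myl2 had the highest level of the members per kilobase of transcript in both groups. Its group mean was 43796 normalized counts in GFP libraries and 38084 in dnMKL1 libraries. The authors' deposited table gave a log2 fold change of -0.20 (SE 0.11) and an adjusted Wald p-value of 0.132, and the 95% interval ran from -0.41 to 0.0054. The interval just reached past 0, and a fall was not separated from no change. Its atrial counterpart Myl7 had group means of 259 and 347 normalized counts. The authors' deposited table gave a log2 fold change of 0.42 (SE 1.24) with an adjusted Wald p-value of 0.849. The interval for Myl7 ran from -2.02 to 2.86, which is from 0.247-fold to 7.27-fold.

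Among the essential light chains, the atrial form Myl4 had group means of 189 normalized counts with GFP and 245 with dnMKL1. The authors' deposited table listed its log2 fold change as 0.37 (SE 0.76) and its adjusted Wald p-value as 0.772. The ventricular form Myl3, which is no member, fell from 104569 to 40287 normalized counts. Its log2 fold change of -1.38 (SE 0.12) had an adjusted Wald p-value of 4.5e-26 in the authors' deposited table. The ventricular light chains of the 2 classes therefore differed in outcome, one passing the test and one not, and the difference between them was not tested.

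Sln encodes sarcolipin, the atrial inhibitor of SERCA. Its group means were 66.4 normalized counts with GFP and 179 with dnMKL1, and the authors' deposited table gave a log2 fold change of 1.43 (SE 1.55) with an adjusted Wald p-value of 0.539. Phospholamban, encoded by Pln, had a log2 fold change of -0.21 (SE 0.11) and an adjusted Wald p-value of 0.138 in the authors' deposited table. Neither inhibitor passed. Of the exon bases of Pln, 64.7% are shared with Cep85l or Gm47644 in GENCODE M21, and the use of strand in the counting is not given in the sources used here, so its level may hold reads of those genes.

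Levels of the partners can be set side by side only per length. In normalized counts per kilobase of the longest transcript, Myl7 stood at 439 in the GFP group against 49264 for Myl2, which is 0.890%, and at 588 against 42839 in the dnMKL1 group, which is 1.37%. Per kilobase of coding sequence these shares were 0.560% and 0.864%. Myl4 was at 0.179% of Myl3 in the GFP group and at 0.603% in the dnMKL1 group, where the fall of Myl3 alone lowers the base of the ratio. Sln was at 0.168% of Pln in the GFP group and at 0.523% in the dnMKL1 group. In all 3 pairs and both groups the ventricular partner was ahead by at least 72.9 times per kilobase of transcript. The shifts of these ratios between groups carry the wide errors of the atrial genes and were not tested.

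Over the 10 members the order per kilobase in the GFP group was Myl2, Myl7, Irx4, Myl4, Sln, Mybphl, Hey2, Dkk3, Nr2f2 and Bmp10. In the dnMKL1 group Dkk3 and Hey2 changed places. Neighbours in this order lay within 1 SD of the spread between libraries, with 3 exceptions in the GFP group (Myl2 over Myl7, Myl4 over Sln and Dkk3 over Nr2f2) and 2 in the dnMKL1 group (Myl2 over Myl7 and Hey2 over Nr2f2). Below Myl2, most neighbours thus lay within the spread of single libraries. The error of a group mean was not used, so whether the means differ in order was not tested.

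**Figure D1:**
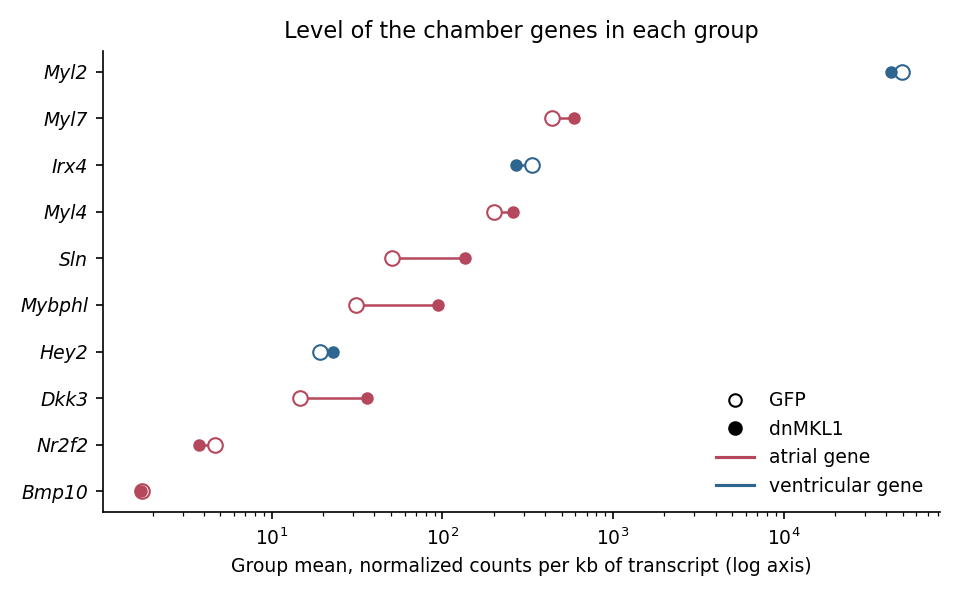
Group means of the 10 members in normalized counts per kilobase of transcript on a log axis, with open circles for GFP, filled circles for dnMKL1, red for atrial and blue for ventricular genes, and a line joining the means of a gene (no error is drawn). Myl2 stands far to the right of all other members in both groups, and the longest lines are those of Sln, Mybphl and Dkk3.

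Mybphl, an atrial protein related to cardiac myosin-binding protein C, had group means of 39.8 normalized counts with GFP and 121 with dnMKL1. The authors' deposited table gave a log2 fold change of 1.60 (SE 1.47) and no p-value. The authors' DESeq2 columns leave this cell empty, and 8 genes of the table lacked one in this way. Another of them was Nppa, the atrial natriuretic peptide, with a log2 fold change of 1.93 (SE 0.60) in the authors' deposited table. Its group means were 1935 and 7359 normalized counts, and 61.5% of its exon bases are shared with Gm13054. The SE of Nppa was larger than that of 199 of the 200 genes nearest in base mean. With no p-value, Nppa was not counted as changed.

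The secreted proteins followed the same pattern of high error. Dkk3, a dickkopf family protein enriched in atria, had group means of 49.1 and 121 normalized counts, with a log2 fold change of 1.31 (SE 0.93) and an adjusted Wald p-value of 0.304 in the authors' deposited table. Bmp10, a ligand of the BMP family produced after birth mainly by atrial muscle, was close to the lower end of what the libraries can measure. Its group means were 7.76 and 7.66 normalized counts, or about 81 reads over all 10 libraries. The authors' deposited table gave Bmp10 a log2 fold change of -0.018 (SE 2.04) and an adjusted Wald p-value of 0.996. The interval, from -4.02 to 3.98, allows a change of over an order of magnitude either way.

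**Figure D2:**
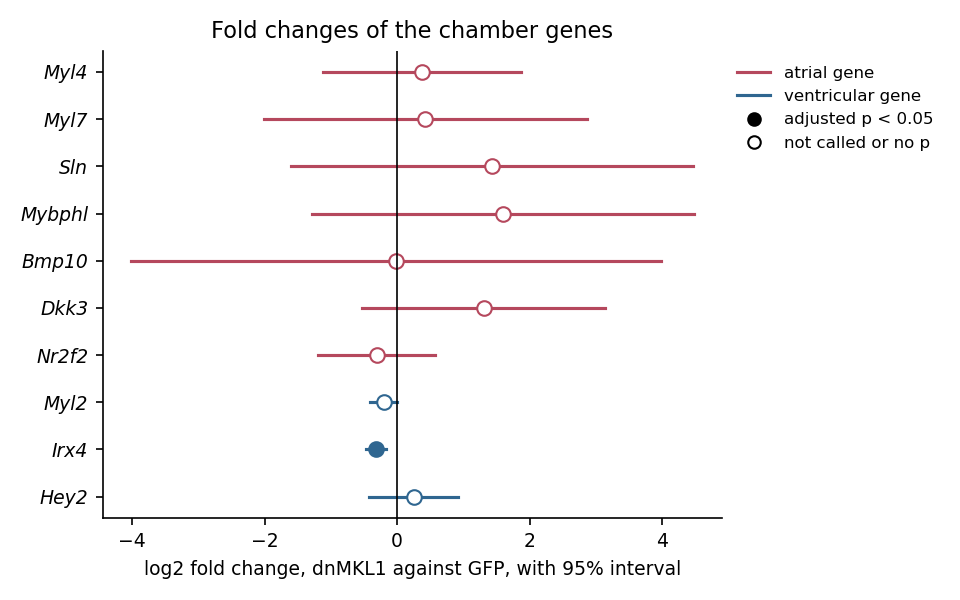
Log2 fold change of each member, dnMKL1 against GFP, with its 95% interval from the deposited SE, red for atrial and blue for ventricular genes, filled where the adjusted p-value was under 0.05. Irx4 is the one filled point, and the intervals of Bmp10, Sln, Mybphl and Myl7 span more than 4 log2 units.

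The transcription factors Irx4, Hey2 and Nr2f2 had smaller SEs than the other atrial members. Irx4, the iroquois factor of ventricular muscle, had group means of 874 normalized counts with GFP and 704 with dnMKL1, a ratio of 0.806. The authors' deposited table gave a log2 fold change of -0.31 (SE 0.077) and an adjusted Wald p-value of 0.000343, with a 95% interval from -0.46 to -0.16. The fall was small but larger than the spread between libraries under the authors' scaling. It held with median-centring, at -0.32 (adjusted Wald p-value 0.00028), but not with the scalings that follow. With both groups set to the same total count, which adds 0.29 to every log2 fold change, Irx4 stood at -0.023 (adjusted Wald p-value 0.833), and 47.0% of all genes passed, 40.4% higher and 6.60% lower. With 8 cardiomyocyte markers set to a median of 0, which adds 0.54, Irx4 was higher at 0.22 (adjusted Wald p-value 0.00694), Myl2 at 0.33 (0.00315) and Hey2 at 0.79 (0.0344), while 64.2% of all genes passed, 61.5% higher and 2.65% lower. These markers were themselves lower in dnMKL1 libraries, with 6 of 8 called, so the reference itself differed between the groups. The direction of Irx4 and Myl2 thus depends on what both groups are scaled to, and only for Irx4 was the lower value called.

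Hey2, a repressor downstream of Notch that holds down atrial genes in the compact ventricle, had group means of 49.1 and 58.5 normalized counts. The authors' deposited table listed its log2 fold change as 0.25 (SE 0.34) and its adjusted Wald p-value as 0.640. Nr2f2 had group means of 19.7 and 15.9 normalized counts, with a log2 fold change of -0.31 (SE 0.45) and an adjusted Wald p-value of 0.670 in the authors' deposited table. Nr2f2 also marks venous endothelium and Hey2 arterial vessels, and markers of those cells were present. The 7 venous and lymphatic markers together had 3195 normalized counts with GFP and 2841 with dnMKL1, with 0 higher and 1 lower, Prox1, which cardiomyocytes also express. Without Prox1 the other 6 summed to 1719 and 1729. The 7 arterial markers summed to 355 and 425, with 0 called. Aplnr, a venous marker, had 707 and 686 normalized counts with a coefficient of variation of 62.2%. The part of other cells in the values of Nr2f2 and Hey2 was not tested.

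Most atrial members had large errors for their abundance. Expressed as a coefficient of variation between libraries of a group, the deposited SE of a gene corresponds to 136% for Myl7, 170% for Sln, 160% for Mybphl, 102% for Dkk3, 83.3% for Myl4 and 221% for Bmp10. Nr2f2 stood apart from the other atrial members at 43.5%. The ventricular members had 11.6% for Myl2, 7.65% for Irx4 and 34.9% for Hey2, and the median was 12.1% over the 9874 genes whose base mean reached 50.

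Ranked by this coefficient among those 9874 genes, the 5 atrial members with so high a base mean stood at places 6 (Sln), 7 (Mybphl), 9 (Myl7), 15 (Dkk3) and 25 (Myl4). Myl2 stood at place 5395, Irx4 at place 8962 and Hey2 at place 336. For 5 of the 7 atrial members (Myl4, Myl7, Sln, Mybphl and Bmp10) the SE was larger than that of each of the 200 genes nearest in base mean. Of the 200 genes nearest to Dkk3, 1 had a larger SE, and of those nearest to Nr2f2, 44 did. The spread was not shared by all atrial genes nor limited to them: the atrial channel gene Kcnj5 had a coefficient of variation of 6.17%, and Myh7, listed as ventricular, had 98.8% and stood at place 16. Among ventricular members, Hey2 had a larger SE than 178 of its 200 nearest genes. Myl2 varied about as much as genes of its level, with 92 of the 200 nearest genes below it. At this spread Myl7 could have been called only with a change of at least 7.84-fold, Sln with 13.0-fold and Myl4 with 3.53-fold, whereas 1.19-fold would have been enough for Myl2. The source of this spread was not tested.

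**Figure D3:**
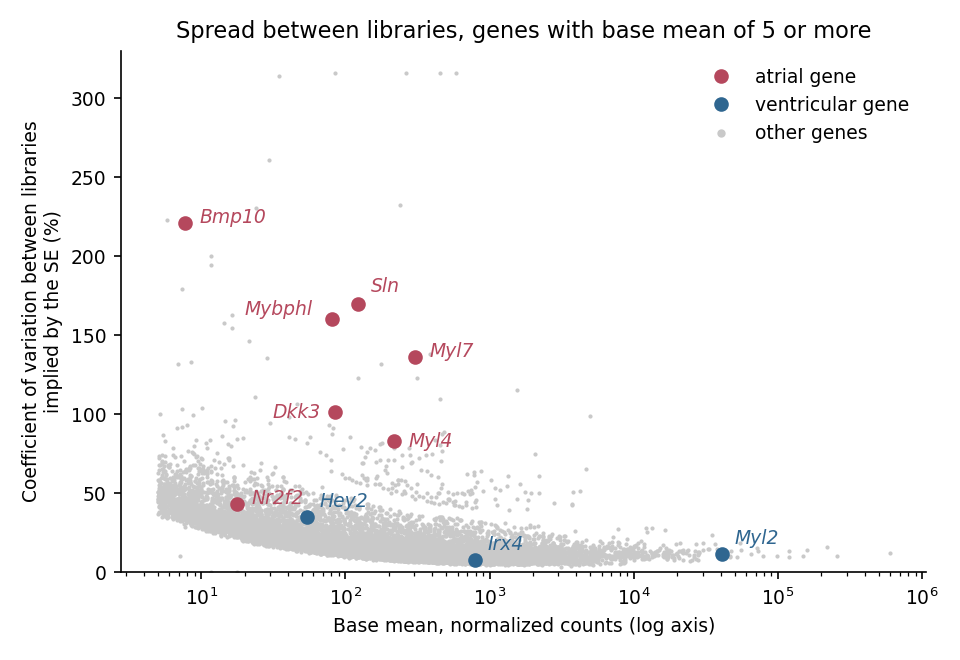
Coefficient of variation between libraries that the deposited SE implies, in percent, against the base mean in normalized counts on a log axis, for every gene whose base mean reached 5 (grey), with atrial members in red and ventricular members in blue. Sln, Mybphl, Myl7, Dkk3 and Myl4 lie between 83.3% and 170%, above the main body of genes, whereas Irx4 and Myl2 lie within it. The third ventricular member, Hey2, is at 34.9%.

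Other genes with atrial enrichment gave a partly different picture. Of 16 such genes, 15 had an adjusted p-value, 5 of them were higher in dnMKL1 libraries and 0 lower. These 5 calls of 15 stand beside 16.6% higher, 17.4% lower and 34.1% in either direction over all genes. The counts were 8 and 0 with total-count scaling (40.4% and 6.60% of all genes) and 10 and 0 with cardiomyocyte scaling (61.5% and 2.65%). The median log2 fold change over the 16 was 0.28, against 0.021 over all genes tested. Gja5, which encodes connexin 40 of atrial muscle and the conduction system, had a log2 fold change of 1.67 (SE 0.19) and an adjusted Wald p-value of 4.2e-16 in the authors' deposited table. The T-type calcium channel gene Cacna1g followed with 1.04 (SE 0.15), Angpt1 with 0.76 (SE 0.18), Pam, which amidates peptides in atrial granules, with 0.69 (SE 0.19) and Stard10 with 0.42 (SE 0.15) in the authors' deposited table. Their adjusted Wald p-values ran from 3.3e-11 for Cacna1g to 0.0149 for Stard10. Unlike Myl7 and Sln, these 5 genes had coefficients of variation from 14.9% to 20.4%. A small SE favours a call, so this contrast depends in part on the choice of called genes. Over all 16 genes the coefficients ran from 6.17% to 107%. The potassium channel genes Kcnj5 and Kcnk3 stood at 0.014 (SE 0.059) and -0.097 (SE 0.14) on the log2 scale in the authors' deposited table and were not called. The median over the 7 atrial members was 0.42.

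The 16 other ventricular genes split. Of 14 tested, 3 were higher and 4 lower, beside 16.6% and 17.4% of all genes. The counts were 5 and 3 with total-count scaling (40.4% and 6.60% of all genes) and 8 and 3 with cardiomyocyte scaling (61.5% and 2.65%). The median log2 fold change was 0.036. Besides Myl3, the genes that fell were potassium channel genes of the transient outward and inward rectifier currents: on the log2 scale the authors' deposited table had -2.24 (SE 0.24) for Kcnip2, -1.73 (SE 0.21) for Kcnd2 and -0.47 (SE 0.17) for Kcnj2. The call of Kcnj2 was the one lost with total-count scaling. Gja1, which encodes connexin 43, was higher at 0.32 (SE 0.068) in the authors' deposited table. The other genes of this list that were higher were Irx3 and Irx5, whose values are given below. Fhl2, a LIM-domain protein of the sarcomere, was at 0.020 (SE 0.094) in the authors' deposited table. Myh7 had a log2 fold change of 0.92 (SE 0.90) and no p-value there.

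The other iroquois genes were set beside Irx4, with no test of the difference between genes. Of the 5 iroquois genes tested, Irx3 and Irx5 were higher under each scaling, whereas Irx4 was lower under the authors' scaling, not called with total-count scaling and higher against cardiomyocyte markers. On the log2 scale the authors' deposited table had 0.84 (SE 0.16) for Irx3 and 0.81 (SE 0.15) for Irx5, with adjusted Wald p-values of 3.1e-06 and 7.1e-07. Both lie on chromosome 8. Irx1 and Irx2, which share chromosome 13 with Irx4, stood at 0.10 (SE 0.29) and 0.16 (SE 0.30) on the log2 scale in the authors' deposited table and were not called.

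Of 21 regulators of chamber identity, 20 were tested, and 1 was higher and 1 lower (Irx4 itself) under the authors' scaling, beside 34.1% of all genes called. With total-count scaling 10 were higher and 0 lower, beside 40.4% and 6.60% of all genes. With cardiomyocyte scaling 15 were higher and 0 lower, beside 61.5% and 2.65%. Under the authors' scaling the one that rose was Jag1, a Notch ligand, at 0.75 (SE 0.21) with an adjusted Wald p-value of 0.00189. None of the core factors was called: the authors' deposited table gave -0.019 (SE 0.092) for Tbx5, which favours atrial genes, -0.0031 (SE 0.099) for Nkx2-5, 0.10 (SE 0.072) for Gata4 and 0.33 (SE 0.21) for Tbx20. For Tbx5 the 95% interval ran from -0.20 to 0.16.

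**Figure D4:**
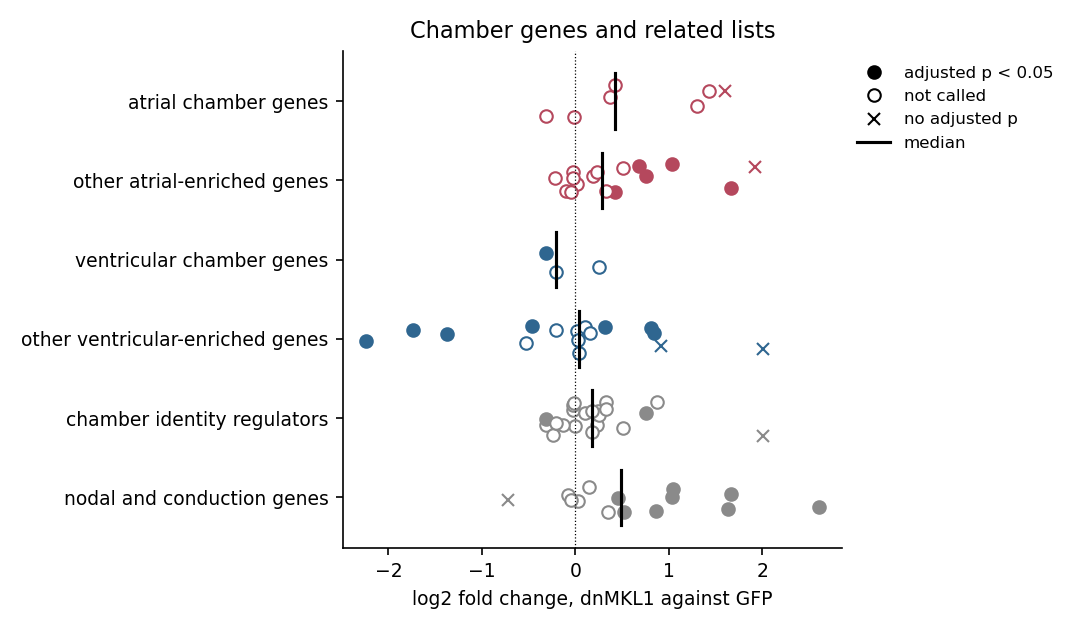
Log2 fold change of each gene, dnMKL1 against GFP, in 6 lists (red atrial, blue ventricular, grey other), with filled circles for an adjusted p-value under 0.05, open circles for genes not called, crosses for genes with no adjusted p-value and a black bar at the median. The 5 filled circles among other atrial-enriched genes all lie to the right of 0, while those of other ventricular-enriched genes lie on both sides. Some genes stand in more than one list.

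The sorted cells held markers of cardiomyocytes and of other cell types. The 8 cardiomyocyte markers were themselves lower, with 0 higher and 6 lower and a median log2 fold change of -0.54, from -0.11 for Mybpc3 to -1.55 for Actc1. Those that fell most surely were Actc1, Myh6 (-0.87), Tnnt2 (-0.58) and Ryr2 (-0.78), as log2 fold changes of the authors' deposited table. Of 8 endothelial markers 0 were called, with sums of 2832 and 2924 normalized counts in the GFP and dnMKL1 groups. Of 8 fibroblast markers 3 were higher (Col1a1, Col1a2 and Col3a1) and 0 lower, with sums of 3539 and 4913, and 6 were higher with total-count scaling. Of 7 mural markers 2 were higher (Tagln and Myh11) and 1 lower (Acta2), with sums of 11422 and 6155. Acta2 alone had 10454 normalized counts with GFP and 4999 with dnMKL1, most of each sum, and which cells it came from was not tested. Without Acta2, the other 6 summed to 968 and 1156, all with positive log2 fold changes. Of 6 epicardial markers 0 were called (sums 58.6 and 57.4), and among 5 macrophage markers Cd68 alone was higher (sums 134 and 120). No list held a marker at 0 in both groups. The part of the rise in fibroblast markers in the values of Dkk3, which fibroblasts can also express, was not tested.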

How the data were processed

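The series measured RNA from sorted cardiomyocytes of 5 GFP and 5 dnMKL1 samples. Per the labels' protocols, 10 ng of total RNA was reverse transcribed, amplified over 8 cycles with a SMART-Seq kit, and 500 pg of cDNA entered Nextera XT libraries. Reads were aligned with STAR 2.5.3a and counted per gene with featureCounts (Subread 1.5.2) on mm10, per the submitters' processing notes. The annotation and use of strand are not given in the sources used here.

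The authors' table has DESeq2 columns, per the file headers. The deposited base mean is a signal value that the authors made by dividing counts by size factors and averaging over libraries, per the file headers. The deposited fold change and SE are log2 values, the deposited Wald statistic is a score, and deposited p-values are given raw and Benjamini-Hochberg adjusted over 14056 genes, the lowest at a base mean of 1.31. Recomputed adjusted p-values differed from the deposited ones by at most 1.44e-07.

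From these, group means were computed as the 2 values with the deposited ratio and average, and intervals as 95% normal ones. The coefficient of variation solves the negative binomial variance for the SE, after counting error. It reflects the authors' fitted dispersion, not an SD of observed values. It was tested on simulated counts, and its largest value here, 316%, is that of a dispersion of 10. Order per length used 1 SD of that spread on the log scale, with counting error included. Size factors come from the base means of genes with a single read, and a library's total takes its group's composition. Intervals cover the fitted error only, and PCR reads carry no molecular identifiers. Lengths and exon overlaps came from GENCODE M21 (GRCm38), and 4 of 10 members share exon bases with another gene, at most 7.46% (Nr2f2). Python 3.11.15, pandas 2.3.3, numpy 2.4.6 and scipy 1.17.1 were used.

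The members and lists were chosen with earlier results of these data known. Genes named are all members, Mkl1, the partners Myl3, Pln and Nppa, Srf, genes without a p-value, and up to 4 called and 2 abundant genes per other list. Chosen after their values were seen were Irx1, Irx2, Irx3, Kcnj2, Kcnj5, Gja1, Fhl2, Stard10, Tbx5, Nkx2-5, Mybpc3, Hcn4, Gjc1, Cntn2, Tbx3 and Isl1. Some genes of the lists are not reported here by name. Scalings, thresholds and filters were varied as described in the closing section.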

Additional observations from a re-analysis of the deposited data

How the results depend on the processing

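The 1 chamber gene called, Irx4, was called alike at adjusted p-values under 0.01 and 0.1 and with adjustment over every p-value. It was also called among genes whose base mean reached 10 and with median-centring. The 0 atrial genes called stayed 0 under all 9 alternatives. The stricter threshold and the minimum fold changes can only remove calls, so they could not have raised this count. The count over all members and over ventricular members was 0 with total-count scaling, 3 with cardiomyocyte scaling (all higher), and 0 with a minimum absolute log2 fold change of 0.5 or 1, since the fold of Irx4 is smaller. Total-count scaling reversed Bmp10 to 0.27 and Myl2 to 0.087, neither called. Cardiomyocyte scaling reversed Bmp10 to 0.52, Nr2f2 to 0.23, Myl2 to 0.33 and Irx4 to 0.22, the last 2 called. Both scalings shift every gene by 1 constant, taken as free of error, and which is closer to RNA per cell was not tested. Ratios of atrial to ventricular partners per coding length moved by less than the spread between libraries. No paired analysis was possible because the table holds 1 comparison of both groups and no column for a numbered library. For the same reason the fits that leave out 1 library each and another count normalization were not run. How far 1 library decides a value was therefore not measured, also for the 8 genes with a fold change and no p-value.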

Other observations

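Genes of the pacemaker and conduction system, which share connexins and channels with atrial muscle, were also examined. Of 15 such genes, 13 were tested, 8 were higher in dnMKL1 libraries and 0 lower, beside 16.6% and 17.4% of all genes. The counts were 10 and 0 with total-count scaling (40.4% and 6.60% of all genes) and 11 and 0 with cardiomyocyte scaling (61.5% and 2.65%). The median log2 fold change over 14 was 0.49. Gja5 and Cacna1g also stand among the atrial genes. On the log2 scale the authors' deposited table had 1.63 (SE 0.31) for Gjd3, a connexin gene, 1.05 (SE 0.26) for Cntn2, which marks Purkinje cells, 0.87 (SE 0.19) for Etv1, 0.52 (SE 0.20) for Hcn4 and 0.46 (SE 0.11) for Gjc1. The nodal transcription factor gene Tbx3 was at 0.15 (SE 0.15) in the authors' deposited table and was not called. Isl1, another nodal factor, was listed at 0. The coefficient of variation was 28.7% for Cntn2.

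Of the 8 genes with a fold change and no p-value, 3 are in the lists used here: Mybphl, Nppa and Myh7. The others were Tmem163, Gm5506, Atp6v0e2, Wtip and Adamts8. Their coefficients of variation between libraries ran from 65.3% for Nppa to 160% for Mybphl, with 98.8% for Myh7. Myh7, the slow myosin heavy chain of the fetal ventricle, had group means of 3422 and 6481 normalized counts.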
